A study of Homo sapiens with 12 samples.

Results

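Olfactory receptors are G protein-coupled receptors that detect odorants in the nose. Each olfactory sensory neuron transcribes a single receptor gene and keeps the others shut, and most other tissues transcribe few of them, so these genes are often taken as a background of silent genes. The family is large, lies in clusters on many chromosomes and holds many pseudogenes. Members were the gene symbols of families 1, 2 and 4 in the platform annotation, with names ending in P left out. This pattern found 1 gene, OR4C45, among 14884 symbols. Probesets annotated with no symbol or with several were left out. RefSeq lists 155 symbols of the same pattern. For 154 of them no probeset was annotated with that symbol alone, and they were not analysed here. Receptors with known odorants or known sites of expression outside the nose, such as OR1A1, OR1D2, OR2AT4, OR2J3 and OR2W1, were among these. The spread of a family of silent genes could therefore not be measured, and the values below describe OR4C45 alone, beside other gene lists.

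OR4C45 was represented by 1 probeset, annotated with the transcript of a receptor gene on chromosome 11. In the current RefSeq annotation (GRCh38.p14) it is a transcribed pseudogene. Its neighbours there include the receptor genes OR4C12 and OR4C13 and the pseudogenes OR4C48P and OR4C49P. None of these neighbours had a probeset annotated with its symbol alone. Signal from related receptors that share sequence with OR4C45 cannot be told apart from its own.

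The arrays were made from H1299-Dendra2 cells. H1299 is an established human lung cancer line of the non-small cell type, and Dendra2 is a stably expressed fluorophore that turns from green to red under violet light. Spheroids were grown in Matrigel. Leader cells, at the tip of an invading chain, made up 1 group and follower cells, which trail behind, another. The controls were invasive photoconverted cells and invasive non-photoconverted cells. Each of the 4 groups had 3 arrays, with 10 sorted cells per array. All cells came from this single selected line, and nothing in the labels or methods says that the wells were separate cultures, so a p-value speaks only of the spread between these wells. The deposited log2 values of 12 Affymetrix Human Gene 2.0 ST arrays had been background corrected and quantile normalized by the authors. The number of symbols above a log2 value of 6 ran from 76 in follower replicate 3 to 332 in non-photoconverted replicate 2. The next highest number was 192, in follower replicate 2. Of 11 genes listed for H1299 cells, not all of them specific to these cells, 7 were measured, with a median level of 3.86. VIM had a mean of 6.03 and EEF1A1 of 8.82, while GAPDH, KRT18, LDHA, KRT8 and KRT19 had means of 3.97, 3.86, 3.37, 3.20 and 3.01. Of the markers of blood, endothelium and fibroblasts CD14 and PECAM1 were measured, with means of 2.76 and 3.18. Of 7 listed markers of differentiated lung epithelium 6 were measured, with means from 2.41 to 3.98 (median 2.91). The highest of them, SFTPD at 3.98, was at the level of GAPDH.

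In leader cells OR4C45 had log2 values of 3.03, 3.29 and 4.40 (replicates 1 to 3). In follower cells the values were 3.18, 2.90 and 3.73. In photoconverted invasive cells they were 4.53, 4.10 and 3.79. These 3 arrays were all above the follower arrays, a separation seen in one direction or the other for 9.14% of symbols. In non-photoconverted invasive cells the values were 3.64, 3.05 and 4.73. The lowest of these lay among the leader and follower arrays, and the highest lay above every other array. Each remaining pair of groups overlapped. Over all symbols, the share whose groups did not overlap was 8.74% for leader against follower cells and 9.75% for the controls. It was 0.302% for the 6 leader and follower arrays against the 6 invasive arrays.

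**Figure D1:**
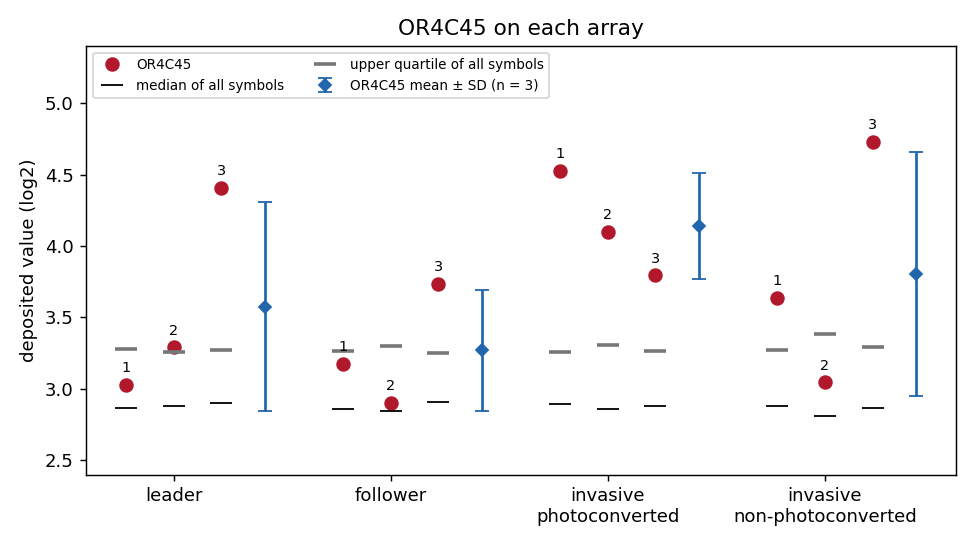
Deposited log2 value of OR4C45 (red points, numbered by replicate) on each of the 12 arrays, with the group mean ± SD (blue) and the median (black) and upper quartile (grey) of all 14884 symbols on the same array. The points run from 2.90 in follower replicate 2 to 4.73 in non-photoconverted replicate 3, and all lie above the array median.

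By rank, the signal of OR4C45 did not lie at the low end of the arrays. It was above the array median on 12 of 12 arrays and above the upper quartile on 8 of them. Its mean of 3.70 ± 0.63 (SD, n = 12) stood at the percentile 89.9 of all symbols, and on single arrays it ran from the percentile 54.4 in follower replicate 2 to 96.5 in photoconverted replicate 1. Probesets differ in how strongly they bind, so these positions describe signal and not amounts of transcript. The value table holds no detection calls, and whether the signal came from OR4C45 transcript was not tested. A signal at the low end, as the choice of these receptors for a silent background assumes, was thus not seen for OR4C45. Genes of another list with no known role in lung cells also reached such levels. Of 84 keratin-associated protein genes 9 had a mean above that of OR4C45, with a list median of 2.83 and a highest mean of 4.76.

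The spread between arrays of the same group was wide. The range within a group was 0.73 in photoconverted cells, 0.83 in follower cells, 1.37 in leader cells and 1.68 in non-photoconverted cells. From the lowest to the highest of all arrays the signal differed 3.56-fold. The within-group SD, pooled over the 4 groups, was 0.63 for OR4C45, against a median of 0.32 over all symbols. It stood at the percentile 88.5 of all symbols, and at the percentile 67.2 among symbols in the same class of mean level, the highest of 4 classes of equal size. Spread grew with level over the table, as the median SD was 0.27 in the lowest class and 0.51 in the highest.

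**Figure D2:**
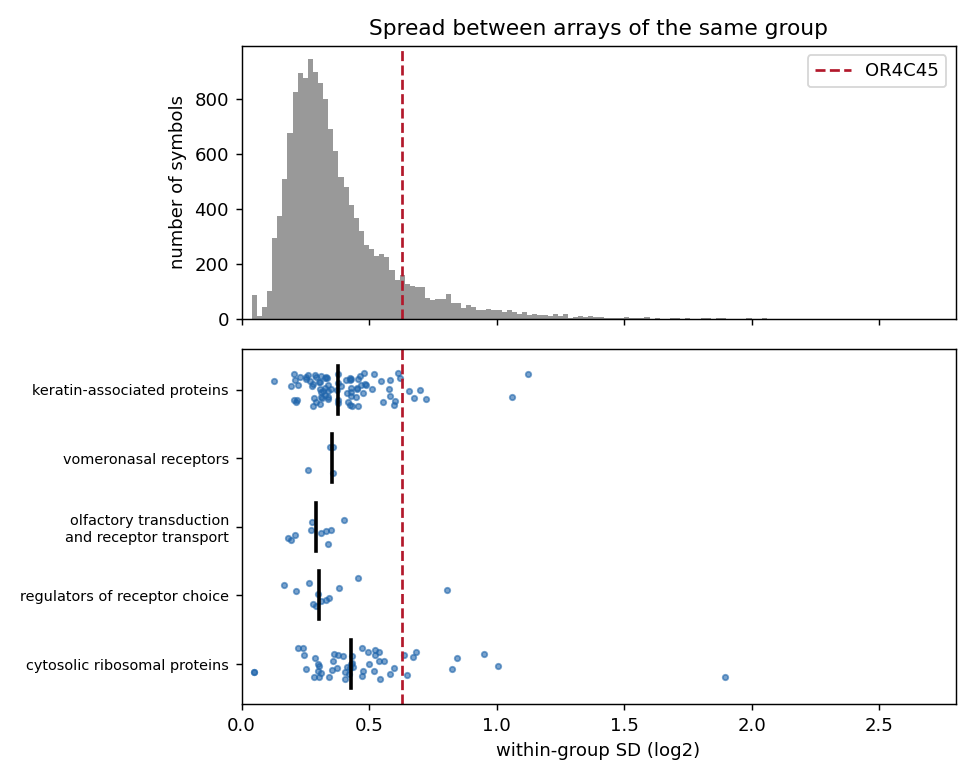
Within-group SD on the log2 scale (horizontal axis), pooled over the 4 groups of 3 arrays, as a histogram over all symbols (top) and for single genes of 5 lists (bottom, black bars are medians). The dashed line marks OR4C45 at 0.63, to the right of the median of every list drawn.

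The order of the group means was photoconverted (4.14 ± 0.37), non-photoconverted (3.80 ± 0.85), leader (3.57 ± 0.73) and follower cells (3.27 ± 0.42; SD, n = 3 each). The highest and the lowest mean were 0.87 apart. Neighbours in this order differed by 0.23 to 0.34, less than the SD between arrays of either group in each pair. The standard error of a difference was 0.45 for leader minus follower and for the controls. The gap of 0.87, between photoconverted and follower cells, was larger than the SD of either group and was not tested.

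Leader and follower cells were compared first, since the study set out to find what separates these populations. OR4C45 had a mean 0.30 higher in leader cells (standard error 0.45, 95% interval -0.68 to 1.29), and its adjusted p in limma was 1.00. The exact two-sided permutation test over the 6 arrays gave p = 0.6, where the smallest value 3 arrays against 3 allow is 0.1. When leader replicate 3, the highest array of its group, was left out, this turned to -0.11. When leader replicate 1 was left out, it grew to 0.58. Among all symbols 0 passed an adjusted p under 0.05 in limma, or 0%, and 613 had an unadjusted p under 0.05, or 4.12%. The unadjusted limma p of OR4C45 was 0.513. A difference at least as large in either direction was seen for 29.2% of all symbols and for 44.3% of those in its level class.

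The methods describe a permutation procedure that sets leader minus follower differences between single arrays against the absolute differences between the control arrays. At an unadjusted p under 0.05 it called 3.12% of symbols in favour of leader cells and 2.53% in favour of follower cells. OR4C45 was not called, with a permutation p of 0.932 in the direction of leader cells and a permutation p of 0.998 in that of follower cells. Since the control differences are absolute, values near 1 in both directions do not show that the groups are alike. With signed control differences the smaller permutation p was 0.512. The 9 differences of each comparison share arrays and are not independent.

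Photoconverted and non-photoconverted invasive cells were compared by the study to find changes due to the light itself. OR4C45 had a mean 0.34 higher in photoconverted cells (standard error 0.45, 95% interval -0.65 to 1.32). Its adjusted p in limma was 1.00, and the exact permutation test over these arrays gave p = 0.6. Leaving out non-photoconverted replicate 2, the array with the most symbols above a log2 value of 6, gave -0.044. Leaving out non-photoconverted replicate 3 gave 0.80. With array weights in limma the difference was 0.080. Among all symbols 0 passed the adjusted test, or 0%, and 724 had an unadjusted p under 0.05, or 4.86%. The difference between leader and follower cells minus that between the controls was -0.031 (standard error 0.64, adjusted p = 1.00 in limma), where 0% of symbols passed and 3.65% had an unadjusted p under 0.05.

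Of the comparisons fitted, that of leader and follower cells with both invasive groups had the largest difference of OR4C45. The 6 leader and follower arrays had a mean of 3.42 ± 0.56 (SD) and the 6 invasive arrays 3.97 ± 0.62 (SD). This is a difference of -0.55 (standard error 0.32, 95% interval -1.25 to 0.15). It did not pass (unadjusted p = 0.112 and adjusted p = 0.876 in limma), and the exact two-sided permutation test over the 12 arrays gave p = 0.134. Of the 6 invasive arrays 5 lay above the median of the leader and follower arrays, and 2 lay above the highest of them. In this comparison 1 symbol, PRTFDC1, passed the adjusted test, or 0.00672%, and 5.66% had an unadjusted p under 0.05. A difference at least as large was seen for 5.87% of all symbols and for 17.0% of those in its level class.

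**Figure D3:**
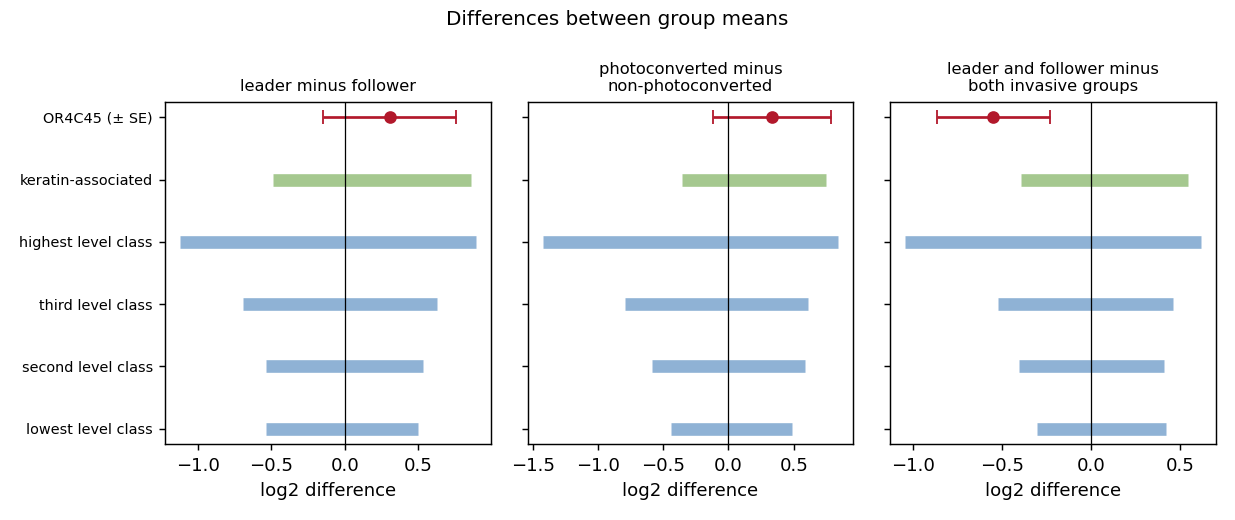
Difference of OR4C45 between group means on the log2 scale (red, ± standard error) in 3 comparisons, above bars that hold the central 95% of differences of 84 keratin-associated protein genes (green) and of all symbols in 4 classes of mean level (blue). The bars widen from the lowest to the highest class, and OR4C45 lies inside the bar of the highest class in each comparison.

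Other lists show what differences genes with no known role in lung cells gave on these arrays. Taste receptors, beta-defensins and the other olfactory receptor families had 0 symbols among the 14884 analysed. The keratin-associated proteins, which build hair, had 84 measured genes. Of these, 49 had a positive and 35 a negative leader minus follower difference (median 0.078, against 0.0022 over all symbols). In limma 0 passed the adjusted test and 4 had an unadjusted p under 0.05 (4.76% of the list, against 4.12% of all symbols), which were KRTAP4-3 (0.83) and KRTAP5-6 (0.91) with positive and KRTAP4-6 (-0.71) and KRTAP4-12 (-0.49) with negative differences. Of the 84 genes 29 had a difference at least as large as that of OR4C45, and the SD of the differences was 0.37. Their median within-group SD was 0.38. Between the controls 54 had positive and 30 negative photoconverted minus non-photoconverted differences (median 0.12), where all symbols had 7847 positive and 7037 negative differences (median 0.017). Of the 84 genes 0 passed, and 1, KRTAP20-2 (0.94), had an unadjusted p under 0.05 (1.19% of the list, against 4.86% of all symbols). Vomeronasal receptors, the pheromone receptor family, had 4 measured genes, VN1R1, VN1R2, VN1R4 and VN1R5, whose leader minus follower differences were 0.39, -0.032, 0.47 and 0.42, with 0 past either threshold in limma.

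The size of differences followed the level of the signal. In the lowest level class of all symbols the SD of leader minus follower differences was 0.27, and 0.564% of symbols differed by at least 1. In the highest class, which holds OR4C45, the SD was 0.50 and 5.24% differed by at least 1. Between the controls the corresponding SDs were 0.23 and 0.55.

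The genes that carry the odorant signal in the nose were described beside the receptor. Of 19 listed genes of olfactory transduction and receptor transport 10 were measured. Leader minus follower differences were positive for 4 and negative for 6 (median -0.084), and 0 passed the adjusted test or had an unadjusted p under 0.05. CNGA2 and CNGA4, subunits of the cyclic nucleotide-gated channel of olfactory neurons, differed by 0.44 (standard error 0.25) and by -0.53 (standard error 0.31). OMP, the olfactory marker protein of mature olfactory neurons, differed by -0.20 (standard error 0.23). Of 7 listed markers of olfactory sensory neurons 6 were measured, and the other 5 had positive differences (median of the 6 genes 0.28), from 0.086 for STOML3 to 0.54 for NCAM2, a cell adhesion molecule. NCAM2 had an unadjusted p of 0.0228 in limma, against 4.12% of all symbols under 0.05, and 0 of the 6 passed the adjusted test. All 12 listed regulators of receptor choice were measured, with 7 positive and 5 negative leader minus follower differences and 0 at an unadjusted p under 0.05. LHX2, a homeodomain factor that binds enhancers of receptor genes in the mouse, differed by 0.48 (standard error 0.23, adjusted p = 1.00 in limma). Between the controls 1 of these regulators, EBF3, had an unadjusted p under 0.05, with a mean difference of 0.62, where 4.86% of all symbols did. All 12 listed regulators failed the adjusted test in that comparison.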

How the data were processed

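RNA of 10 sorted cells per well was amplified and hybridised by the authors, who deposited log2 values after GC adjustment, RMA background correction, quantile normalization and mean summary per probeset; the submitters' processing notes name Partek 6.6 and RMA. For the genome build: not given in the sources used here. Of 53617 probesets 16098 carried 1 symbol. Probesets with no symbol or with several were left out. The probeset with the highest mean represented each of 14884 symbols. None of the 5473 probesets at 0 on all arrays was among those with 1 symbol.

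All 4 groups entered a single limma model (version 3.58.1, R 4.3.3, with eBayes moderation, Benjamini-Hochberg over all symbols and a threshold of 0.05), and intervals used its moderated degrees of freedom. The permutation procedure of the methods was rebuilt in Python (3.11.15, NumPy 2.4.6) with 500 permutations. The methods leave out genes that changed between the controls and name no test for that step. The unpaired t-test of their statistics section, called the methods' t-test here, was used for it. It left out 686 symbols with an unadjusted p under 0.05. The limma model and the permutation procedure were both tested on simulated data.

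Members and lists were chosen with earlier results of these data known. Genes named are OR4C45, all measured genes listed for H1299 cells, all measured vomeronasal receptors, and up to 3 examples of each other list. In addition PRTFDC1, EBF3, NCAM2, SFTPD, the keratin-associated genes below the unadjusted threshold and those of the closing section were chosen after their values were seen. LHX2, among the regulators of receptor choice, and CNGA2 and CNGA4, among the transduction genes, had the smallest unadjusted leader minus follower p in limma. With 1 member, correlations over members, their SD and the search for near-identical members were not run. Alternatives were other normalizations, a level filter, probeset means, array weights, a trended robust prior, the replicate number as a block, the methods' t-test and leaving out single arrays.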

Additional observations from a re-analysis of the deposited data

How the results depend on the processing

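OR4C45 was not called in any comparison under any alternative run, by limma, by the methods' t-test or by the permutation procedure. With single arrays left out, the leader minus follower difference ran from -0.11 to 0.58, the control difference from -0.044 to 0.80, the difference of these differences from -0.49 to 0.35, and the difference of leader and follower from both invasive groups from -0.76 to -0.32. The first changed sign without leader replicate 3 and the control difference without non-photoconverted replicate 2. With array weights the control difference was 0.080. The difference of differences, at -0.031, also changed sign with array weights (0.21) and without several single arrays. Leader and follower cells against both invasive groups had an unadjusted p of 0.0436 with array weights, 0.0284 without leader replicate 3 and 0.035 without non-photoconverted replicate 2 (adjusted p 0.797 to 0.974 over the limma settings). With the replicate number as a block the differences stayed at 0.30, 0.34, -0.55 and -0.031, with adjusted p from 0.809 to 0.999. The standard error of leader minus follower fell from 0.45 to 0.38. Symbols with an unadjusted limma p under 0.05 in that comparison rose from 613 to 669. Samples of the same number in different groups had a mean correlation of deviations of 0.036 (-0.071 to 0.22). For different numbers it was -0.018 (-0.26 to 0.18). This mean is closely tied to the first, since deviations from a group mean cancel within the group. Whether the numbers pair the samples cannot be told from these values. The mean level was 3.87 under cyclic loess and 3.70 with median centring. Taking all olfactory receptor families together left OR4C45 as the only gene. The 3 arrays per group limit the precision.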

Other observations

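The values here belong to no comparison above, and the genes were chosen after their values were seen. Among the 14884 symbols 257 had the same value as another symbol on each of the 12 arrays, and the largest such set held 12 symbols, of which 12 were microRNA genes. OR4C45 shared its values with no other probeset. A further set of 86 symbols had a within-group SD under 0.06, with mean levels from 2.84 to 3.22 (median 3.21) and a median pairwise correlation of 0.99 over the 12 arrays, which are the same arrays for each gene. RPL10, a ribosomal protein gene, lay between 3.14 and 3.30 on all arrays, RPL31, another one, between 3.14 and 3.31, and CHEK2, a DNA damage checkpoint kinase gene, between 3.12 and 3.29. PECAM1, named above as an endothelial marker, lay between 3.10 and 3.26 with a within-group SD of 0.047. OR4C45, with an SD of 0.63, was not among these near-constant symbols. What these values have in common was not tested.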
